A study of Mus musculus with 4 samples.

Results

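The transcription factor p53 (gene Trp53) and its target genes were examined in bulk RNA-seq of CD24+ emergency progenitors (EPs) from the mouse spleen. The 34 genes are Trp53 itself and established mouse p53 targets for cell cycle arrest, apoptosis, DNA repair and metabolism, taken from a list by gene symbol, which was drawn up with earlier results of these data known. They were 34 of 40213 gene symbols in the count files, and all 34 had a row. EPs are CD11c+CD117+ cells that expand when the growth factor Flt3L is given and that include precursors of dendritic cells. All mice received 10 μg of Flt3L-Ig by the intraperitoneal route on day 0 and again on day 3, and the cells were sorted on day 9. The study asked what changes in these cells when TopBP1, a scaffold protein of DNA replication and of the ATR checkpoint, is deleted. One group was WT, which in the study means littermates with the TopBP1 fl/fl alleles and no cre, and the other was labelled cKO, TopBP1 fl/fl with CD11c-cre. Each group had 2 libraries, and mice in the study were 7 to 10 weeks old. The CD11c promoter drives the cre, so deletion begins only in cells that have turned CD11c on. The labels do not say whether the 2 libraries of a group came from separate mice, so the P values measure the spread between these libraries.

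p53 is held low in unstressed cells by Mdm2, a ubiquitin ligase that is itself a p53 target. Kinases of the DNA damage response such as ATM, ATR and CHK2 free p53 from Mdm2, and p53 then binds a response element made of a pair of short half-sites near its target genes. The targets stop the cell cycle, repair DNA, change metabolism or start apoptosis, and blood progenitors are known for a low threshold for p53-dependent death.

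The libraries held 14561583 to 15193831 counts. Topbp1 had 77.9 and 75.6 CPM (counts per 1000000 counts of the library, scaled by the TMM method) in the WT libraries, 50.7 CPM in replicate 1 labelled cKO and 82.7 CPM in replicate 2 labelled cKO. Replicate 1 labelled cKO was thus below both WT libraries, while replicate 2 was above both and in this level went against its label (log2 fold change −0.20 ± 0.21 (SE), adjusted P = 0.774 by the edgeR quasi-likelihood test, 0.11 without replicate 1 and −0.61 without replicate 2). These counts are summed over the gene and do not show whether the floxed part was lost in a library. Itgax, the gene of CD11c, stood at 614 to 690 CPM, Kit, the gene of CD117, at 383 to 481 CPM and Cd24a at 756 to 972 CPM over the 4 libraries. Flt3, the receptor of Flt3L, was at 614 to 717 CPM, and the dendritic cell genes Irf8 and Xcr1 were at 1933 to 2514 and 626 to 753 CPM. Of 13 neutrophil markers, 6 (Ltf, S100a8, S100a9, Lcn2, Ngp and Cd177) were called higher in the libraries labelled cKO, where 0.105% of all genes tested were called. The summed level of all 13 was 1252 to 1506 CPM in WT against 2501 to 3240 CPM. Both libraries labelled cKO lay above both WT libraries for 11 of them, against 22.8% of all genes tested. The groups overlapped for Elane and for Mpo (598 and 423 CPM in WT, 874 and 195 CPM in the libraries labelled cKO). No B cell, T cell or macrophage marker passed the test. Their summed levels in WT against the libraries labelled cKO were 68.1 to 73.7 against 82.3 to 86.0 CPM for 7 B cell markers, 190 to 218 against 168 to 219 CPM for 6 T cell markers and 37.3 to 40.7 against 44.8 to 49.0 CPM for 8 macrophage markers. Cd8a made up most of the T cell sum, at 179 and 206 CPM in WT and 148 and 205 CPM in the libraries labelled cKO. Of the 4 T cell markers tested, the other 3 had both libraries labelled cKO above both WT libraries (75%, against 22.8% of all genes). Of the 6 macrophage markers tested, 2 had both libraries labelled cKO above (33.3%, against 22.8%) and 3 had both below (50%, against 20.8%). Csf1r, the highest macrophage marker, was at 19.4 and 22.6 against 29.9 and 33.4 CPM. Of 8 pDC markers 1 was called higher, Cox6a2, with 0 and 3 counts in WT and 183 and 168 in the libraries labelled cKO. It passed the low-count filter through the libraries labelled cKO alone, so that it had to differ. Tcf4 and Bst2 were lower at an unadjusted P under 0.05 by the quasi-likelihood test (25% of the 8, against 3.77% of all genes). The sum of all 8 was 202 to 209 CPM in WT against 178 to 183 CPM. The part of these cells in the values of the p53 targets was not tested. In bulk RNA, fewer cells that express a gene and less of its RNA per cell cannot be told apart.

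No gene of the p53 set passed an adjusted P of 0.05 in the edgeR quasi-likelihood test, and the members pointed in both directions. After a filter on low counts 31 of the 34 were tested among 12393 genes. Of these, 0 were called at an adjusted P under 0.05, where 0.105% of all genes tested were. At an unadjusted P under 0.05, 10 of 31 members (32.3%) stood out, against 10.7% of all genes tested. In the libraries labelled cKO, 6 of these were higher (19.4% of members, against 6.95% of all genes) and 4 were lower (12.9%, against 3.77%). The higher ones were Cdkn1a, Phlda3, Pidd1, Dram1, Ptp4a3 and Ccng1, and the lower ones Btg2, Pmaip1, Trp53inp1 and Ercc5. Both libraries labelled cKO lay above both WT libraries for 12 members (38.7%), where 22.8% of all genes tested did so. Both lay below for 5 members (16.1%), where 20.8% of all genes did. The fitted log2 fold change was positive for 22 members and negative for 9, with a median of 0.11 against 0.01 over all genes tested. One of the higher members, Phlda3, passed the low-count filter through the libraries labelled cKO alone, so that it had to differ. Without it 9 of 30 members (30%) were at an unadjusted P under 0.05, 5 (16.7%) were higher, and 11 (36.7%) had both libraries labelled cKO above both WT libraries.

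Other tests on the same counts called some members. The edgeR likelihood ratio test called Cdkn1a, Phlda3, Pidd1 and Btg2, with 1.89% of all genes called, and Phlda3 entered that test through the libraries labelled cKO alone, so that 3 of 30 members are called without it. The DESeq2 Wald test called Cdkn1a and Btg2, with 1.11% of all genes called. With replicate 1 labelled cKO left out, the quasi-likelihood test called 10 members (Cdkn1a, Ccng1, Btg2, Ptp4a3, Pmaip1, Aen, Phlda3, Pidd1, Tnfrsf10b and Ercc5), but that fit called 20.5% of all genes. With replicate 2 left out it called 2 members, Cdkn1a and Btg2, and 1.74% of all genes. An exact permutation test of 2 libraries against 2 cannot give a two-sided P below 0.333, so none is given for single genes.

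**Figure D1:**
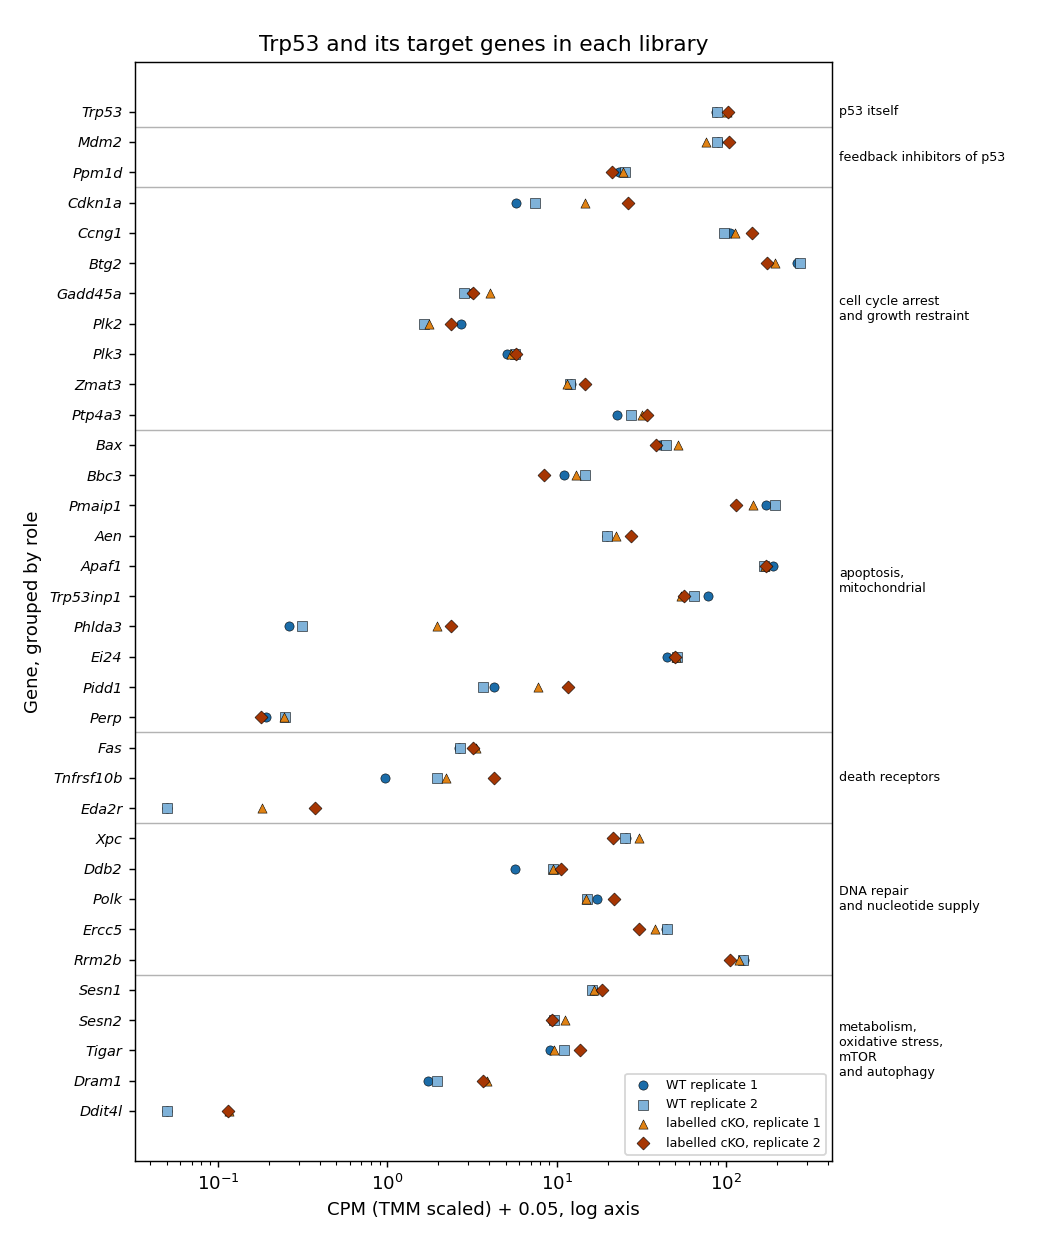
Level of each of the 34 genes in each of the 4 libraries, as CPM plus 0.05 on a log axis, grouped by role. Phlda3, Cdkn1a, Pidd1 and Dram1 show both libraries labelled cKO (triangle and diamond) to the right of both WT libraries (circle and square), Btg2 and Pmaip1 show them to the left, and Mdm2 and Bax have the WT points between the others.

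Levels between genes were compared per kilobase of exon, as CPM per kb in WT with exon lengths from GENCODE M21. The highest were Btg2 (97.3 CPM per kb) and Pmaip1 (67.0), followed by Ccng1 (28.8), Bax (26.8), Trp53 (21.7) and Apaf1 (19.6). Cdkn1a ranked at place 23 of the 34, with 1.84 CPM per kb in WT and 5.76 in the libraries labelled cKO. Phlda3, at 0.153 in WT and 1.36 in the libraries labelled cKO, was among the lowest. The members of this set with the largest log2 differences were thus expressed at low levels in WT, and the 2 most abundant ones were lower in both libraries labelled cKO.

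The p53 response element was looked for in the promoters of the members, to describe where a like sequence lies close to the start. The windows, from RefSeq on GRCm38.p6, run from 250 bases before to 50 bases after each start, and 25 of the 34 genes had one. The search was for a pair of 10-base half-sites with up to 1 base between them and the central C and G of each half-site kept, and as the element reads alike on both strands it covers both. At most 3 other mismatches were allowed, a limit set after the matches were seen. A match was found in 8 of 25 members (32%), against 3.27% of 27025 genes with a window. The members were chosen as p53 targets, so this share is a description only. With at most 1 mismatch, 2 members (8%) matched, Cdkn1a and Ccng1, against 0.13% of genes. The matched element is in capitals with 10 flanking bases on each side, printed 5′ to 3′ on the strand of the gene, and the base counted from the start site is the first of the element. Shown are the 3 closest matches, with Trp53 itself and the apoptotic target Bbc3 from those with 3 mismatches. The Cdkn1a site lies before the upstream one of 2 RefSeq starts. Of the Cdkn1a counts, 96.1% lay in 1 of its 2 transcript rows, and which start that transcript uses was not determined.
Cdkn1a, GRCm38.p6 chr17:29090918-29090957, plus strand, 1 mismatch, from base −51: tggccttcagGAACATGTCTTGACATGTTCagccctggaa
Ccng1, GRCm38.p6 chr11:40755452-40755491, minus strand, 1 mismatch, from base −195: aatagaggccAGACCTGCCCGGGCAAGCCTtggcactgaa
Bax, GRCm38.p6 chr7:45467069-45467109, minus strand, 2 mismatches, from base −201: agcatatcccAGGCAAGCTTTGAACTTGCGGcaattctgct
Bbc3, GRCm38.p6 chr7:16309476-16309515, plus strand, 3 mismatches, from base −97: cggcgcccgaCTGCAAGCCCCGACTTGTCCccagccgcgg
Trp53, GRCm38.p6 chr11:69580274-69580313, plus strand, 3 mismatches, from base −75: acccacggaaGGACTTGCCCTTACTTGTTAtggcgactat

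Sesn1, Tigar and Aen had the other matches, each with 3 mismatches. Of these 8 genes, Cdkn1a and Ccng1 were among the 6 higher at an unadjusted P under 0.05, none was among the 4 lower, and Bax, Bbc3, Sesn1, Tigar, Aen and Trp53 were in neither group. The 9 members without a window could not match, so these counts do not compare higher with lower members. Phlda3, Pidd1, Dram1 and Btg2 had windows without a match at this limit. A match describes the letters in this window and does not show binding, and p53 sites farther from the start, as in introns, lie outside it.

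Trp53 itself was at 87.1 and 88.4 CPM in the WT libraries and at 100.5 and 102.5 CPM in those labelled cKO. Both libraries labelled cKO were above both WT libraries, by little (log2 fold change 0.21 ± 0.11 (SE), adjusted P = 0.559 by edgeR), and 10.1% of its 31-base sequences also occur in other genes, chiefly the pseudogene Trp53-ps. Mdm2, the ligase that marks p53 for degradation, was at 89.0 and 88.7 CPM in WT, and at 75.4 CPM in replicate 1 and 104 CPM in replicate 2 labelled cKO. The WT libraries lay between the other pair, and the fitted log2 fold change was 0.02 ± 0.16, from −0.24 without replicate 2 labelled cKO to 0.23 without replicate 1. Ppm1d, the phosphatase that turns p53 signalling off, was at 21.1 to 25.1 CPM with overlapping groups (−0.08 ± 0.16).

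Among the 8 genes of cell cycle arrest and growth restraint, 3 were higher at an unadjusted P under 0.05 (37.5%, against 6.95% of all genes). At the same threshold 1 was lower (12.5%, against 3.77% of all genes). Cdkn1a encodes p21, the inhibitor of cyclin-dependent kinases through which p53 stops the cycle. It had 5.72 and 7.34 CPM in WT, 14.6 CPM in replicate 1 labelled cKO and 26.3 CPM in replicate 2, from 81, 111, 223 and 407 counts. Both libraries labelled cKO exceeded both WT libraries, and the pair labelled cKO was also the farther apart. The fitted difference was 3.13-fold (log2 1.65 ± 0.31 (SE)), with an adjusted P of 0.237 by edgeR's quasi-likelihood test, 5.7e-04 by its likelihood ratio test and 8.4e-04 by DESeq2. Over the alternatives on all 4 libraries the adjusted P ran from 3.1e-07, by the quasi-likelihood test with a replicate block, to 0.445 by limma-voom. That block pairs same-numbered libraries, for which the labels give no shared source, and the fit with it called 504 of all genes tested. Without replicate 2 labelled cKO the log2 value was 1.15, and without replicate 1 it was 2.00. An antisense gene overlaps part of the Cdkn1a exons, and how the counting used strand is not given in the sources used here.

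Btg2, an antiproliferative gene whose product speeds the removal of poly(A) tails, went the other way from Cdkn1a. Its levels were 260 and 274 CPM in WT and 194 and 175 CPM in the libraries labelled cKO. Both of the latter were lower, the groups did not overlap, and the difference (log2 −0.53 ± 0.12, 0.69-fold) exceeded the spread within each pair. The adjusted P was 0.307 by edgeR's quasi-likelihood test, 0.0204 by its likelihood ratio test and 0.0321 by DESeq2, with a range of 0.0204 to 0.445 over the alternatives on all 4 libraries, and the log2 value ran from −0.61 to −0.47 with any 1 library left out.

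Ccng1, cyclin G1, a p53 target that helps to bring Mdm2 back, was at 105 and 97.2 CPM in WT and at 113 and 142 CPM in the libraries labelled cKO. The groups did not overlap, but replicate 1 labelled cKO was close to WT replicate 1 (log2 0.34 ± 0.14, adjusted P = 0.465 by edgeR, and 0.15 without replicate 2 labelled cKO). Ptp4a3, a phosphatase of the PRL family, was at 22.5 and 27.3 CPM in WT and at 31.6 and 33.95 CPM in the libraries labelled cKO (0.40 ± 0.16, adjusted P = 0.443 by edgeR, and 0.26 without WT replicate 1). The stress gene Gadd45a (2.78 to 4.00 CPM), the polo-like kinases Plk2 (1.59 to 2.69 CPM) and Plk3 (5.02 to 5.69 CPM) and the RNA-binding zinc finger gene Zmat3 (11.5 to 14.6 CPM) had log2 fold changes from −0.08 to 0.28. Of these 4, only Gadd45a had both libraries labelled cKO above both WT libraries.

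**Figure D2:**
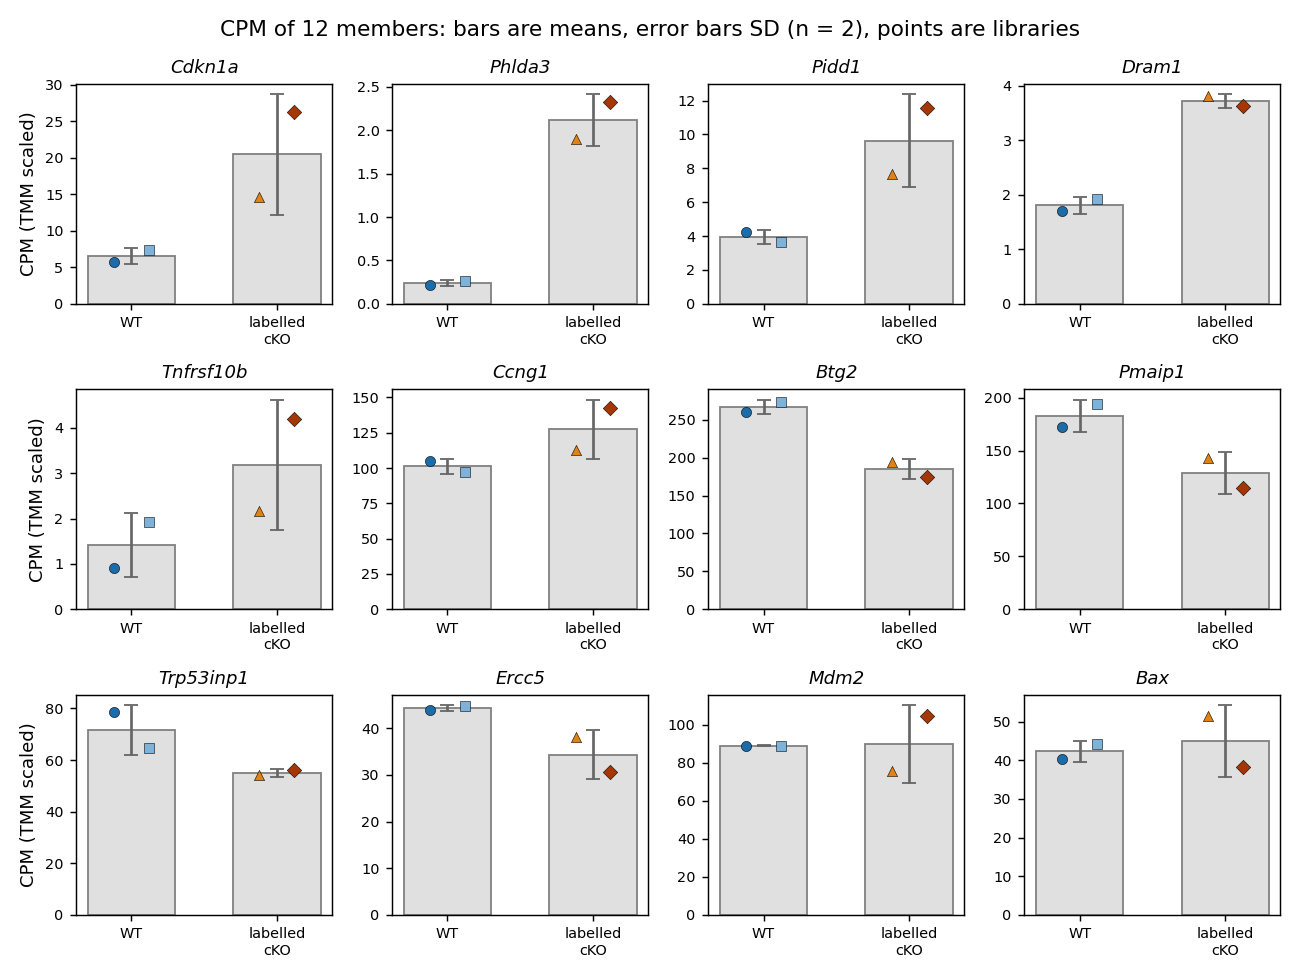
CPM of 12 members in WT and in the libraries labelled cKO; bars are means, error bars are SD (n = 2) and points are libraries (circle and triangle replicate 1, square and diamond replicate 2). The 6 genes from Cdkn1a to Ccng1 have both labelled cKO points above both WT points, the 4 genes from Btg2 to Ercc5 have them below, and in Mdm2 and Bax the WT points lie between.

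The 10 genes grouped under mitochondrial apoptosis, not all of which act at the mitochondrion, pointed both ways. Of the 9 tested, 2 were higher at an unadjusted P under 0.05, Phlda3 and Pidd1 (22.2%, against 6.95% of all genes). Lower were 2, Pmaip1 and Trp53inp1 (22.2%, against 3.77% of all genes). The summed level of the 10 genes was 559 CPM in both WT libraries against 514 and 479.5 CPM. Pmaip1 weighed most in that fall, with a mean of 183 CPM in WT and 129 CPM in the libraries labelled cKO, while Phlda3 and Pidd1 are too low to weigh in it. Phlda3 encodes a small pleckstrin-homology protein that competes with the kinase AKT for membrane lipids. It had 3 and 4 counts in WT and 29 and 36 counts in the libraries labelled cKO, or 0.212, 0.265, 1.90 and 2.33 CPM. The groups were far apart at a very low level, and each pair was close together. The ratio of the summed counts was 8.85 (95% exact interval 4.06 to 22.9, for counting error only), and the fitted log2 value of 3.10 ± 0.53 ran from 2.94 to 3.26 with any 1 library left out. The adjusted P was 0.182 by edgeR's quasi-likelihood test, 1.6e-04 by its likelihood ratio test and 0.0709 by DESeq2, with a range of 1.6e-04 to 0.28 over the alternatives on all 4 libraries. Phlda3 was the 1 member that passed the low-count filter of 0.661 CPM through the libraries labelled cKO alone, as given above. It has 1 transcript row and shares none of its 31-base sequences with another gene.

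Pidd1, the scaffold of the PIDDosome that activates caspase-2, had 4.24 and 3.64 CPM in WT, 7.68 CPM in replicate 1 and 11.6 CPM in replicate 2 labelled cKO, from 60, 55, 117 and 179 counts. Both libraries labelled cKO were above both WT libraries (2.44-fold, log2 1.29 ± 0.29). The adjusted P was 0.307 by edgeR's quasi-likelihood test, 0.0181 by its likelihood ratio test and 0.0817 by DESeq2. Over the alternatives on all 4 libraries it ran from 0.00317, with the replicate block named above, to 0.445 by limma-voom. The log2 value was 0.95 without replicate 2 labelled cKO. Its counts were spread over 7 of 9 transcript rows and the leading row held 24.3% of them, so the sum over the gene is the value used.

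Neither of the BH3-only genes, whose products open the way for BAX and BAK at the mitochondrion, was higher in both libraries labelled cKO. Pmaip1, encoding NOXA, was at 172 and 194 CPM in WT and at 143 and 115 CPM in the libraries labelled cKO. Both were below both WT libraries (log2 −0.51 ± 0.14, adjusted P = 0.337 by edgeR's quasi-likelihood test, 0.083 by its likelihood ratio test and 0.122 by DESeq2). Over the alternatives on all 4 libraries the adjusted P ran from 0.0633, with the replicate block named above, to 0.445 by limma-voom. Bbc3, encoding PUMA, was at 11.02 and 14.6 CPM in WT and at 12.9 and 8.41 CPM in the libraries labelled cKO, with overlapping groups (−0.27 ± 0.26, from −0.61 without replicate 1 labelled cKO to −0.0017 without replicate 2). Bax itself, the pore-forming effector, was at 40.3 and 44.2 CPM in WT, 51.5 CPM in replicate 1 and 38.3 CPM in replicate 2 labelled cKO, so that the WT pair lay between (0.09 ± 0.17), and 11.1% of its 31-base sequences also occur in other genes.

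Trp53inp1, a cofactor that raises the p53 response and takes part in autophagy, was at 78.4 and 64.6 CPM in WT and at 54.0 and 56.2 CPM in the libraries labelled cKO. The groups did not overlap (log2 −0.38 ± 0.14, adjusted P = 0.401 by edgeR, and −0.23 without WT replicate 1). Aen, an apoptosis-enhancing nuclease, was at 19.9 and 19.6 CPM in WT and at 22.3 and 27.4 CPM in the libraries labelled cKO, again without overlap (0.33 ± 0.17, adjusted P = 0.536 by edgeR, and 0.16 without replicate 2 labelled cKO). Apaf1, the core of the apoptosome, was at 167 to 187 CPM in the 4 libraries (−0.06 ± 0.12), and Ei24 stood at 44.9 to 51.3 CPM (0.06 ± 0.13). Perp, a membrane protein gene of p53-dependent death in other tissues, had 2, 3, 3 and 2 counts and did not pass the low-count filter, with a ratio of 0.953 (95% exact interval 0.219 to 4.14).

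The death receptors were low in these cells. Tnfrsf10b, the mouse TRAIL receptor, had 0.919 and 1.92 CPM in WT and 2.17 and 4.20 CPM in the libraries labelled cKO, from 13, 29, 33 and 65 counts. The groups did not overlap, but WT replicate 2 and replicate 1 labelled cKO were close (log2 1.16 ± 0.51, adjusted P = 0.474 by edgeR), and the value ran from 0.59 to 1.77 with 1 library left out. Of its 31-base sequences 10.8% also occur in other genes. Fas, the receptor of Fas ligand, was at 2.61 and 2.65 CPM in WT and at 3.28 and 3.17 CPM in the libraries labelled cKO (0.29 ± 0.32). Eda2r, a receptor of ectodysplasin, had 0 and 0 counts in WT and 2 and 5 in the libraries labelled cKO, at least 2.22-fold higher when a floor of 3 counts stands for WT, while the exact 95% interval of the ratio, which covers counting error only, reaches down to 1.37. It did not pass the low-count filter.

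The 5 genes of DNA repair and nucleotide supply included no gene that was higher in both libraries labelled cKO. Ercc5, the XPG endonuclease of nucleotide excision repair, was at 43.9 and 44.8 CPM in WT and at 38.1 and 30.6 CPM in the libraries labelled cKO. Both were lower (log2 −0.37 ± 0.15, adjusted P = 0.456 by edgeR, and −0.23 without replicate 2 labelled cKO). Rrm2b, the p53-induced subunit of ribonucleotide reductase, was at 127 and 125 CPM in WT and 118 and 105 CPM in the libraries labelled cKO (−0.18 ± 0.12), and 7.19% of its 31-base sequences also occur in other genes. The damage sensors Xpc (21.4 to 30.5 CPM, 0.03 ± 0.19) and Ddb2 (5.58 to 10.5 CPM, 0.41 ± 0.29) and the translesion polymerase gene Polk (14.8 to 21.8 CPM, 0.19 ± 0.22) had groups that overlapped. In Ddb2, WT replicate 1 alone was low, and the log2 value was 0.08 without it.

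Of the 5 genes of metabolism, oxidative stress and autophagy, Dram1, a lysosomal membrane protein gene of p53-dependent autophagy, differed the most. It had 1.70 and 1.92 CPM in WT and 3.81 and 3.62 CPM in the libraries labelled cKO, from 24, 29, 58 and 56 counts. The pairs were tight and well apart, with a ratio of summed counts of 2.05 (95% exact interval 1.47 to 2.90). The log2 fold change of 1.03 ± 0.33 (adjusted P = 0.353 by edgeR's quasi-likelihood test, 0.168 by its likelihood ratio test and 0.679 by DESeq2, and 0.168 to 0.679 over the alternatives on all 4 libraries) ran from 0.95 to 1.12 with any 1 library left out. The sestrins, which restrain mTORC1, had small differences, Sesn1 at 16.0 to 18.4 CPM (0.11 ± 0.17) and Sesn2 at 9.31 to 11.1 CPM (0.11 ± 0.21). Tigar, a phosphatase that lowers glycolysis, was at 9.12 to 13.7 CPM with overlapping groups (0.21 ± 0.24). Ddit4l, an mTOR inhibitor gene, had 0 and 0 counts in WT and 1 and 1 in the libraries labelled cKO, which is under the floor.

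**Figure D3:**
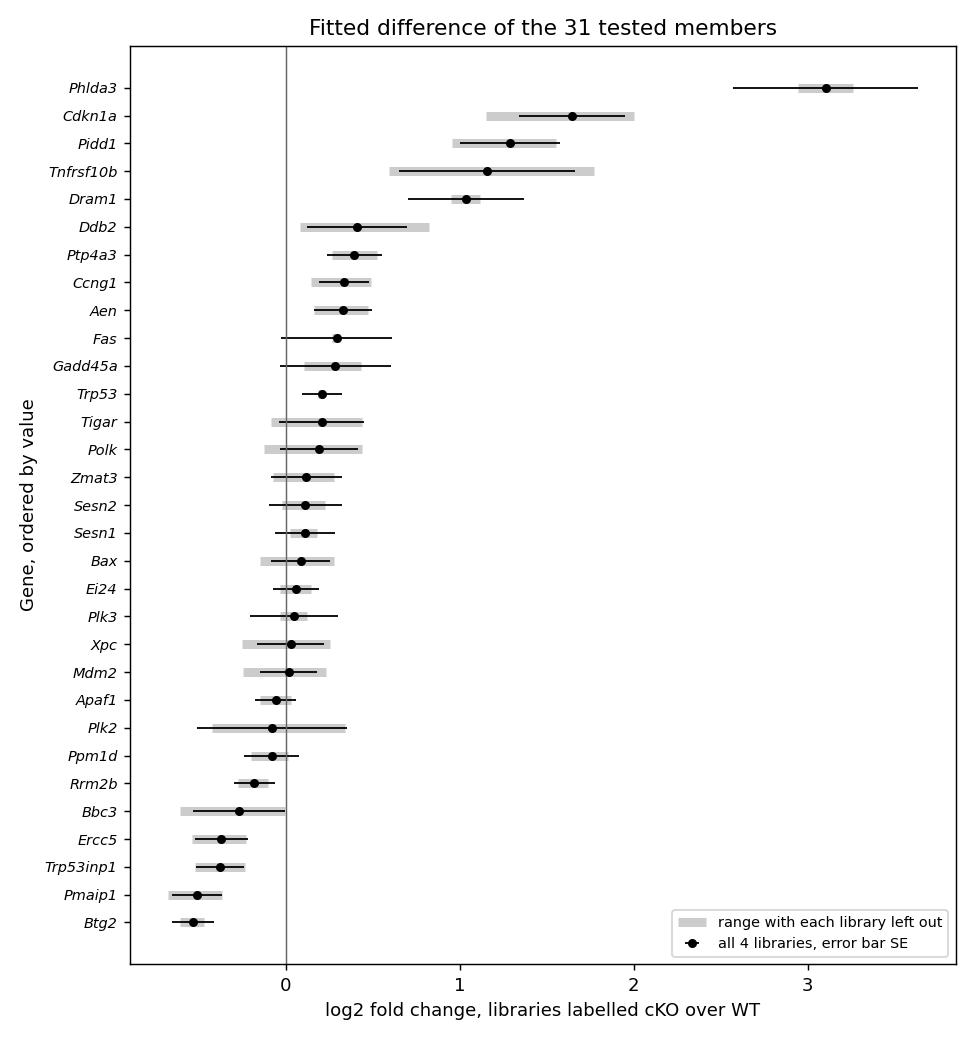
Fitted log2 fold change of the 31 tested members, libraries labelled cKO over WT, ordered by value; points and error bars are the value and SE from all 4 libraries, and grey bars span the values with each library left out in turn. Phlda3 at 3.10, Cdkn1a at 1.65, Pidd1 at 1.29, Tnfrsf10b at 1.16 and Dram1 at 1.03 stand at one end and Btg2 at −0.53 at the other, while most members lie close to 0.

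The 2 libraries labelled cKO differed from each other more than the WT pair did. The median absolute log2 difference within the pair was 0.301 over the tested members in the libraries labelled cKO and 0.165 in WT. Over the 12339 genes tested that had a count in every library it was 0.249 and 0.142. Replicate 2 labelled cKO exceeded replicate 1 for Tnfrsf10b (log2 0.96), Cdkn1a (0.85), Pidd1 (0.59), Polk (0.555), Tigar (0.517) and Mdm2 (0.47). For Tnfrsf10b the WT pair also differed, by 1.06. It was lower for Bbc3 (−0.61), Xpc (−0.51) and Bax (−0.43). The order of Topbp1 in the same libraries was that replicate 2 was the higher one, as given above.

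Of 25 regulators of p53 outside the set, none passed the quasi-likelihood, likelihood ratio or Wald test among the 22 that were tested, and none reached an unadjusted P under 0.05 in the first. Their median log2 fold change was −0.02. The smallest P values belonged to Trim28, a corepressor that works with Mdm2 (0.25 ± 0.12), Usp7, the deubiquitinase of Mdm2 and p53 (−0.23 ± 0.11), Wrap53 (0.51 ± 0.26, and 0.28 without replicate 1 labelled cKO) and Chek2, the checkpoint kinase that phosphorylates p53 (0.60 ± 0.32). Chek2 was at 8.41 and 7.08 CPM in WT, 8.01 CPM in replicate 1 labelled cKO and 15.4 CPM in replicate 2, so that replicate 2 alone stood apart. The log2 value of Chek2 was 0.04 without that library. Without replicate 1 labelled cKO, 4 of the 22 regulators (18.2%) were called, where 20.5% of all genes were.

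A further 28 p53 targets, chosen apart from the set and with earlier results of these data known, had 0 called among 22 tested by the quasi-likelihood, likelihood ratio and Wald tests, and a median log2 fold change of 0.11. At an unadjusted P under 0.05, 4 were higher (18.2% of those tested, against 6.95% of all genes) and 2 lower (9.09%, against 3.77%). Rps27l, a ribosomal protein variant that binds Mdm2, was at 38.3 and 36.1 CPM in WT and at 47.6 and 55.4 CPM in the libraries labelled cKO (0.47 ± 0.14). The microtubule-associated gene Ckap2, which is also a gene of dividing cells, was at 5.16, 6.29, 8.27 and 20.6 CPM in the same order (1.33 ± 0.41, and 0.52 without replicate 2 labelled cKO). Siva1, a proapoptotic gene, was at 10.95, 10.7, 14.97 and 17.9 CPM (0.60 ± 0.19). Lpin1, a phosphatidate phosphatase gene, was at 100 and 101 CPM in WT and at 80.7 and 53.1 CPM in the libraries labelled cKO (−0.59 ± 0.19, with −0.33 without replicate 2 labelled cKO and −0.92 without replicate 1). The adjusted P of these 4 genes was from 0.346 to 0.36 by edgeR. Without replicate 1 labelled cKO, 8 of the 22 tested (36.4%) were called, where 20.5% of all genes were.

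The genes that p53 lowers indirectly, through p21 and the DREAM repressor complex, were all higher in the libraries labelled cKO, in which Cdkn1a was higher too. All 16 were tested, and 0 passed an adjusted P of 0.05 in the quasi-likelihood test. This list, too, was chosen with earlier results of these data known, so its shares are a description only. At an unadjusted P under 0.05, 16 were higher, against 6.95% of all genes, and both libraries labelled cKO exceeded both WT libraries in all 16, against 22.8% of all genes. The likelihood ratio test called 6 of them (37.5%, against 1.89% of all genes) and the Wald test 5 (31.2%, against 1.11%). The summed level of these genes was 517 and 504 CPM in WT, 668 CPM in replicate 1 labelled cKO and 1827 CPM in replicate 2. The library with the highest Cdkn1a level was also the highest in these cell cycle genes. The cause was not tested, and in bulk RNA more dividing cells and more RNA per cell cannot be told apart. Their median log2 fold change was 1.29, and it was 0.46 without replicate 2 labelled cKO, with 3 of the 16 called (18.8%, against 1.74% of all genes), and 1.85 without replicate 1, with all 16 called (against 20.5% of all genes). Mcm5, a subunit of the replicative helicase, was at 32.3, 39.1, 63.3 and 145 CPM (log2 1.54 ± 0.34, and 0.82 without replicate 2 labelled cKO). Bub1, a kinase of the spindle checkpoint, was at 7.77, 6.81, 13.3 and 33.4 CPM (1.68 ± 0.40, and 0.86 without that library). E2f1, the S-phase transcription factor (0.87 ± 0.21), and Birc5, encoding survivin (1.27 ± 0.33, and 0.59 without that library), went the same way. The adjusted P was 0.307 for each of these 4 genes by edgeR's quasi-likelihood test.

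**Figure D4:**
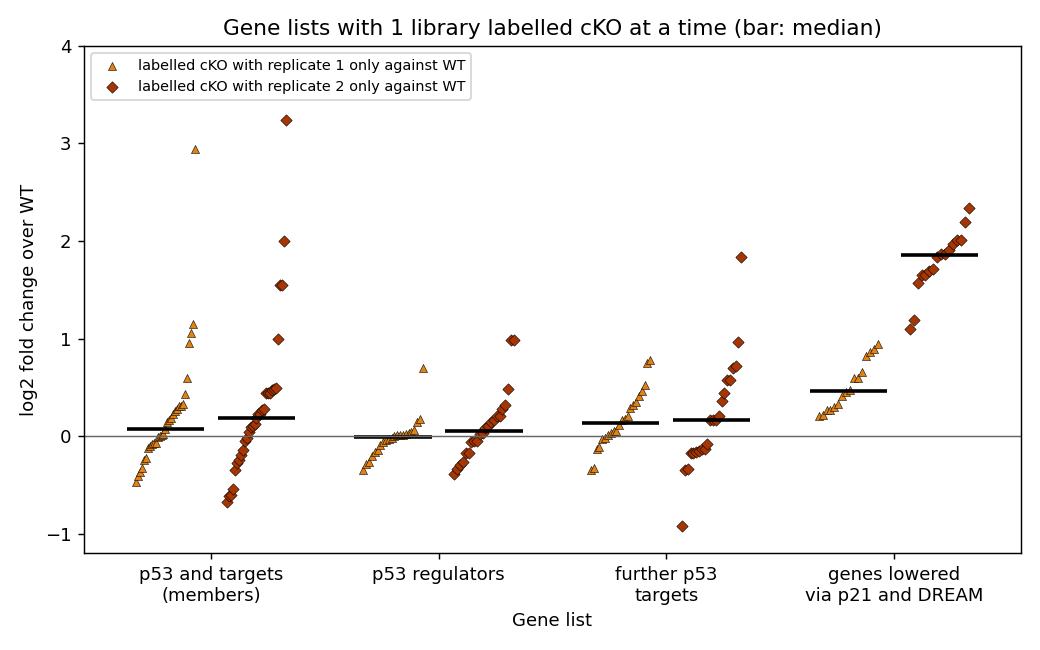
Log2 fold change over both WT libraries with only 1 library labelled cKO kept (triangles replicate 1, diamonds replicate 2), 1 point per tested gene and a bar at the median of each list. The medians of the p53 set are 0.07 and 0.18, while those of the genes lowered through p21 and DREAM are 0.46 and 1.85.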

How the data were processed

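For each of the 4 libraries (2 WT, 2 labelled cKO) the authors deposited whole-number read counts per transcript, without normalization, and these were summed per gene symbol. The submitters' processing notes name fastp, STAR, Salmon and GATK and the build GRCm39. Versions and the counting rule are not given in the sources used here, and counts from Salmon would be rounded estimates. The 4 files list the same 137259 transcripts of 40213 symbols, 19815 with a count. The labels name RNAiso Plus for the RNA, the methods an RNeasy kit.

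The members and lists were chosen with earlier results of these data known. One further list of cell type markers is not reported here. The named genes were all members, Topbp1, the sort markers and, of other lists, genes called and the 4 with the smallest P.

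Genes were filtered by filterByExpr, scaled by TMM and tested with the edgeR quasi-likelihood test (edgeR 4.0.16, R 4.3.3) on all 4 libraries, the P values being adjusted over the 12393 genes by the Benjamini-Hochberg method, with a threshold of 0.05. The biological coefficient of variation was 15.2%. The SE is the log2 fold change over the root of the F statistic. Alternatives were DESeq2 1.42.0 size factors and Wald test, upper quartile scaling, the likelihood ratio test, limma-voom (limma 3.58.1), other low-count filters, single transcripts, a replicate block and each library left out. Reads were not counted as molecules, so intervals and floors (3 counts) cover counting error only. Shared sequence was measured as 31-base sequences on GENCODE M21 (GRCm38), and promoters came from RefSeq GRCm38.p6, not the build of the counts.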

Additional observations from a re-analysis of the deposited data

How the results depend on the processing

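With 2 libraries per group, which library is kept decides most counts of calls. Over all genes tested 13 were called, against 137 with the DESeq2 Wald test, 234 with the likelihood ratio test, 504 with the replicate block and 0 with each transcript as its own feature. With 1 library left out they ran from 1 (without WT replicate 2) to 2625 (without replicate 1 labelled cKO), the lone library being assumed to vary like the other group. Among the p53 set 0 were called, against 2 by the Wald test, 4 by the likelihood ratio test, 4 with the replicate block and 0 to 10 with 1 library left out. Replicate numbers share no source in the labels, and same-numbered libraries had deviations with a correlation of −0.0147, so the numbers do not pair the libraries. Regulators called ran from 0 to 4 with 1 library left out. Further targets gave 2 with the replicate block and 0 to 8 with 1 library left out. Genes lowered through DREAM gave 5 by the Wald test, 6 by the likelihood ratio test, 16 with the replicate block and 0 to 16 with 1 library left out. Members at an unadjusted P under 0.05 numbered 10 (32.3%, against 10.7% of all genes tested), against 6 by the Wald test, where the share over all genes was not taken. Members whose groups do not overlap numbered 17. Of these, 12 had both libraries labelled cKO above (38.7% of members, against 22.8% of all genes) and 5 had both below (16.1%, against 20.8%). They numbered 22 to 28 with 1 library left out, where fewer libraries make overlap rarer and the share over all genes was not taken. The median log2 fold change of the members ran from 0.0699 to 0.182 and that of Topbp1 from −0.61 to 0.11. Mdm2 changed sign with limma-voom (−0.0019), with the replicate block (−0.0011) and with 1 library left out (−0.24 to 0.23). With 1 library left out the sign also changed for Ppm1d (−0.20 to 0.0161), Plk2 (−0.42 to 0.34), Plk3 (−0.032 to 0.12), Zmat3 (−0.0708 to 0.28), Bax (−0.15 to 0.28), Apaf1 (−0.15 to 0.029), Ei24 (−0.0315 to 0.15), Xpc (−0.25 to 0.25), Polk (−0.12 to 0.44), Sesn2 (−0.0195 to 0.23) and Tigar (−0.0828 to 0.44). The cause of these shifts was not tested. Other scalings, low-count filters and limma-voom called no member. Perp, Eda2r and Ddit4l were tested only without the low-count filter, where none was called (adjusted P from 0.677 to 0.991 by edgeR).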
